A study of Mus musculus with 6 samples.

Results

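A set of 10 genes that mark smooth muscle cells, pericytes and myofibroblasts were followed in 6 mouse mammary tumours: Acta2, Tagln, Myh11, Cnn1, Myl9, Des, Rgs5, Cspg4, Notch3 and Lmod1. Every probe set annotated to exactly 1 of these symbols was taken, which gave 18 of the 22690 probe sets of the array and 10 of the 12393 genes that have a probe set of their own. All 10 genes were measured, 4 of them by 1 probe set and 6 by several. All were grafts of 4T1, a mammary tumour line of the mouse. The control group is 3 tumours from control cells and the Bptf KD group is 3 tumours from cells in which Bptf, the largest subunit of the chromatin remodelling complex NURF, had been knocked down by short hairpin RNAs carried by a retrovirus. In both groups 10000 cells went into a mammary fat pad (the fourth) of NSG mice, an immunodeficient strain without mature lymphocytes, and the tumours were taken on day 21. The sources used here do not say what the control cells carried or how old the mice were. The knockdown was made in the injected 4T1 cells, whereas the vessels and stroma of such a graft come from the host mouse.

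Smooth muscle cells wrap arteries and veins and contract through actin and a myosin whose light chain is switched on by phosphorylation. Pericytes sit on the wall of capillaries, and both together are called mural cells. Myofibroblasts are fibroblasts of wounds and tumours that have taken on part of the contractile gene set. Many contractile genes are driven by serum response factor (SRF) with myocardin or its relatives, bound at a DNA element called the CArG box, and Notch3 signalling in mural cells acts through the DNA-binding protein RBPJ. In bulk tissue, fewer cells of a type and less RNA per cell cannot be told apart. Several of the genes are made by other cells too. Des is also a protein of skeletal muscle. Acta2, Myh11 and Cnn1 are also made by the myoepithelial cells of the mammary gland, and tumour cells can make Tagln, Myl9 and Notch3.

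Promoter sequences of 8 of the 10 genes were found in the RefSeq table (GRCm38.p6), all but Tagln and Myh11. The 250 bases before the start of 4 of them are shown, picked by the results below. Acta2 and Myl9 are contractile genes, and the tumour groups overlapped for Acta2 and were apart for Myl9. Whether these genes differ from each other was not tested. Rgs5 and Notch3 had the largest differences of the 10 between the groups. Capitals mark letters that match a CArG box (exact, or with 1 of the 6 inner letters other than A or T), TGGGAA (the core of the site of RBPJ) or CATTCC (the site of TEAD factors), searched on both strands.
Acta2, chr19:34255374-34255623, minus strand: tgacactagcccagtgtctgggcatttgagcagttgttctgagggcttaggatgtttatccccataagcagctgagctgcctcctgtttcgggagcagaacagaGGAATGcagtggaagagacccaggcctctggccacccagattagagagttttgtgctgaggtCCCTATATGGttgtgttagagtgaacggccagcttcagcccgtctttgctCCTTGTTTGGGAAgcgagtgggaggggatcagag
Myl9, chr2:156775214-156775463, plus strand: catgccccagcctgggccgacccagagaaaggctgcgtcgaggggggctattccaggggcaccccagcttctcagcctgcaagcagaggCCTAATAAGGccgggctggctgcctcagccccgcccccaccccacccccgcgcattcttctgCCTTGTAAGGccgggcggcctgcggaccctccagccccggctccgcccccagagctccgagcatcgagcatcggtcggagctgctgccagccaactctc
Rgs5, chr1:169655251-169655500, plus strand: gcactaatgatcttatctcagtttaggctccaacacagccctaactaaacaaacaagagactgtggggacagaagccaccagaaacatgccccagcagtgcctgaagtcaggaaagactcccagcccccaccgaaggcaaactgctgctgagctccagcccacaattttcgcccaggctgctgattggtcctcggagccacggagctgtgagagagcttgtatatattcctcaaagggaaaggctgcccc
Notch3, chr17:32166891-32167140, minus strand: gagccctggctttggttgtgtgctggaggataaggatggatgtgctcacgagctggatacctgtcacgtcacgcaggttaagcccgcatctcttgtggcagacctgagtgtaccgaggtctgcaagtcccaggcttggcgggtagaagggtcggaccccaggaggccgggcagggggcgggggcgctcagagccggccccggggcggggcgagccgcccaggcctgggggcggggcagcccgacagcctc

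Of the 8 promoters, that of Myl9 held the exact CArG box, CCTAATAAGG at positions -161 to -152 counted back from the start, an element found in 1.47% of all 32851 promoter windows of this length. Myl9 also held a CArG box with 1 other inner letter, CCTTGTAAGG at -99 to -90. Acta2 had a pair of such inexact boxes, CCCTATATGG at -84 to -75 and CCTTGTTTGG at -34 to -25, a form found in 7.24% of all windows. The second of these overlaps the TGGGAA of Acta2 at -27 to -22, a sequence present in 21.6% of windows. CATTCC was found on the minus strand in Acta2 at -146 to -141 and in Lmod1 at -130 to -125, against 12.6% of all windows. The windows of Rgs5, Notch3, Cnn1, Cspg4 and Des held none of these letters. A match is a description of the letters and not a measurement of binding.

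The series as a whole was read in brief. Levels are log2 RMA values, in which 1 unit is a 2-fold change, and array medians lay between 7.60 and 7.70. The tumour cell marker Epcam was at 11.02 to 12.24 in the controls and higher in every Bptf KD tumour, at 12.53 to 12.91 (difference 0.96, limma adjusted p = 0.263). Krt18, another such marker, was at 12.60 to 13.82 in the 6 tumours (difference 0.19). Of the 5 such markers tested, 4 were higher and 1, Krt19, was lower (-0.33), and 0 passed the adjusted threshold in limma. Their median difference was 0.19, and 0.03 without control 2. The brightest probe set of Bptf, the target of the knockdown, was at 10.69, 9.77 and 10.59 in controls 1, 2 and 3 and at 9.60, 9.56 and 9.99 in the Bptf KD tumours. On the other 3 probe sets of Bptf, control 2 lay below every Bptf KD tumour, so it is called the tumour labelled control 2 here. That tumour also had the highest skeletal muscle marker mean of the 6 (11.50, against 6.29 to 9.32 in the others, over 15 genes). Its keratinocyte envelope mean was the highest too (10.62 against 7.10 to 7.46, over 2 genes). So was its excess of 3-prime over 5-prime signal for Actb, a sign of RNA breakdown (1.23 against 0.76 to 1.05). For Gapdh that excess was small in every tumour, at 0.06 in the tumour labelled control 2 and -0.08 to 0.04 in the others. Over all 9249 genes tested, 75 passed an adjusted p of 0.05 (limma, Benjamini-Hochberg over all genes), which is 0.811%. That count moved with the tumour left out: it was 412 genes (4.45%) without the tumour labelled control 2, but 10 when control 3 was dropped. Dropping Bptf KD 1 gave 2 genes, dropping Bptf KD 2 gave 6, and dropping Bptf KD 3 gave 0, with 742 genes at an unadjusted limma p under 0.05 in that last fit.

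None of the 10 genes passed the adjusted threshold, and 4 (Notch3, Myl9, Rgs5 and Myh11) were lower in Bptf KD tumours at an unadjusted limma p under 0.05. The background for that rule is 5.82% of all genes lower and 7.65% higher, and 0 of the 10 were higher. That count of 4 was 2 when control 1, control 3 or Bptf KD 2 was left out and 1, Notch3, when Bptf KD 1 was. It was also 2, Myl9 and Rgs5, with the stricter filter (lowest 50% left out) or with the mean of a gene's probe sets. In those 2 settings Notch3 and Myh11 fell under the filter and were not tested, so they did not lose their p there. All 10 had a difference below 0, where 40.4% of all genes did, and their median difference was -0.34 against 0.06 over all genes. Without the tumour labelled control 2 the median was -0.17 against 0.04, with 8 of 10 below 0 (44.0% of all genes). The differences ran from -0.68 for Rgs5 (limma interval -1.29 to -0.08) to -0.04 for Tagln (-0.58 to 0.51). These intervals overlap, and whether the 10 genes differ from each other was not tested.

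**Figure D1:**
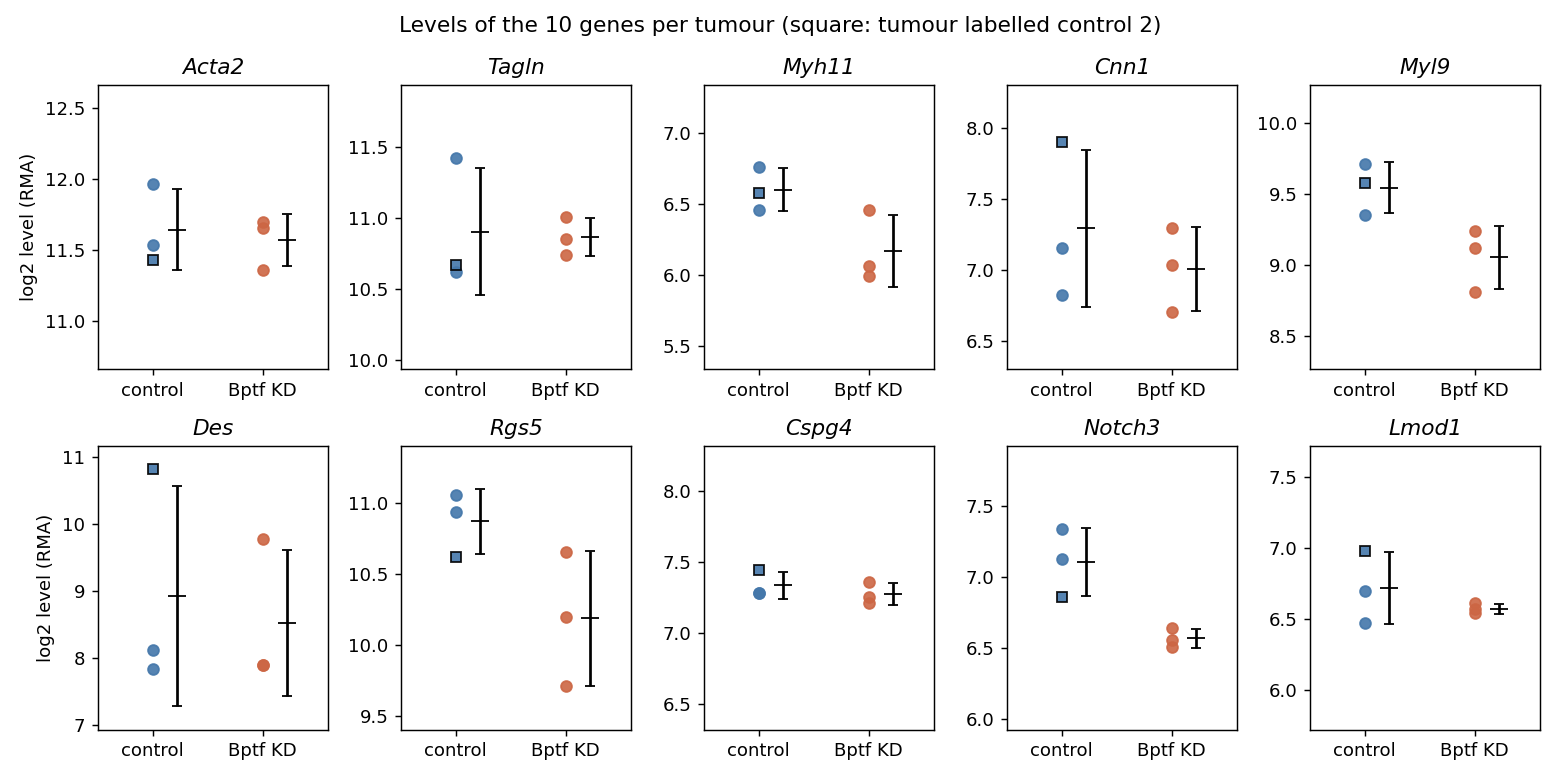
Log2 RMA level (vertical axis, own range in each panel) of each of the 10 genes in the 3 control and 3 Bptf KD tumours, 1 point per tumour, with the group mean and SD as the bar beside the points and a square for the tumour labelled control 2. The groups are apart for Myl9 and Notch3, nearly so for Rgs5 and Myh11, and overlap for the other 6 genes.

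Among the contractile proteins of smooth muscle the differences ran from -0.49 for Myl9 to -0.04 for Tagln, and none passed the adjusted threshold in limma. Acta2, the smooth muscle actin used to stain myofibroblasts, was at 11.54, 11.43 and 11.97 in controls 1, 2 and 3 and at 11.36, 11.66 and 11.70 in Bptf KD 1, 2 and 3. The groups overlapped, with the highest level in control 3 and the lowest in Bptf KD 1. The difference was -0.07 (SE 0.18, 95% interval -0.51 to 0.36, limma adjusted p = 0.907). The second probe set of Acta2 had a mean of 4.48, far under the dim level of 6.09 (the level below which the lowest 30% of probe set means fall), and a difference of 0.00. Tagln, the actin-binding protein transgelin, was at 10.62, 10.67 and 11.42 in the controls and at 10.85, 10.74 and 11.01 in the Bptf KD tumours. Control 3 alone stood above the Bptf KD tumours, and the other controls stood below them. The difference was -0.04 (SE 0.23, 95% interval -0.58 to 0.51, limma adjusted p = 0.969). The sign of both depended on control 3: without it the differences were 0.09 for Acta2 and 0.22 for Tagln. Both intervals hold changes in either direction, so equal levels were not shown.

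Myl9, the regulatory light chain of smooth muscle myosin, was lower in every Bptf KD tumour than in any control. It was at 9.35, 9.58 and 9.71 in the controls and at 8.81, 9.12 and 9.24 in the Bptf KD tumours, with means of 9.55 ± 0.18 and 9.06 ± 0.22 (SD, n = 3 each; exact two-sided permutation p = 0.1, the smallest that 3 against 3 can give). The difference of -0.49 (SE 0.16) is a level 0.712 times that of the controls, with an unadjusted limma p of 0.0204 and an adjusted p of 0.270. Groups apart in this direction were seen in 8.17% of all genes and in 2 of the 10, Myl9 and Notch3. Without the tumour labelled control 2 the difference was -0.47.

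Myh11, the heavy chain of smooth muscle myosin, was at 6.76, 6.58 and 6.46 in the controls and at 5.99, 6.06 and 6.46 in the Bptf KD tumours. Bptf KD 3 equalled control 3, and the other Bptf KD tumours lay below all controls. The means were 6.60 ± 0.15 and 6.17 ± 0.25 (SD, n = 3 each), and the difference of -0.43 (SE 0.17) had an unadjusted limma p of 0.0366 and an adjusted p of 0.340. These levels lie close to the dim level, so the size of the difference is uncertain. The second probe set of Myh11 had a mean of 5.29, under the dim level, and a difference of -0.06.

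Cnn1, the actin-binding protein calponin, was at 6.82, 7.90 and 7.15 in the controls and at 6.70, 7.29 and 7.03 in the Bptf KD tumours. The tumour labelled control 2 was the highest of all, by 0.92 over the mean of the other controls. Lmod1, leiomodin, which seeds actin filaments in smooth muscle, was also highest there: 6.70, 6.98 and 6.47 in the controls and 6.61, 6.57 and 6.54 in the Bptf KD tumours. The differences were -0.28 (SE 0.30, limma adjusted p = 0.747) for Cnn1 and -0.14 (SE 0.15, limma adjusted p = 0.758) for Lmod1. Without the tumour labelled control 2 they were 0.02 and -0.01. The basal keratins Krt5 and Krt14, which myoepithelial cells and skin share, were both highest in that tumour as well, at 8.48 and 11.32, against 6.46 to 6.96 and 7.51 to 9.21 in the other 5. Krt5 was also lower in every Bptf KD tumour than in any control, as were 8.17% of all genes (difference -0.94, limma adjusted p = 0.382). For Krt14 the groups overlapped (difference -0.30). Of the 6 genes of the myoepithelial list on the array, Krt17, Trp63, Oxtr and Cdh3 were under the dim level. The part of such cells in the Cnn1 and Lmod1 values was not tested.

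Des, desmin, the intermediate filament protein of muscle cells and of many pericytes, varied more between tumours than any other of the 10 genes. It was at 8.12, 10.81 and 7.84 in the controls and at 9.77, 7.89 and 7.90 in the Bptf KD tumours, so that 1 tumour of each group stood far above its group. Those were the tumours with the highest skeletal muscle marker means, 11.50 in the tumour labelled control 2 and 9.32 in Bptf KD 1, followed by 8.96 in control 1, 7.48 in Bptf KD 3, 6.47 in control 3 and 6.29 in Bptf KD 2. All 15 tested genes of the muscle list had a difference below 0, and 0 passed the threshold or an unadjusted p under 0.05 in limma. Their median of -1.27 moved with the tumour left out. It was -0.02 without the tumour labelled control 2 and -0.61 without Bptf KD 2, but -2.83 without control 3 and -2.39 without Bptf KD 1. With array weights it was 1.50. The Des difference of -0.40 had an SE of 0.87 (limma adjusted p = 0.887). It turned to 0.38 with the muscle mean as a covariate and to 0.54 without the tumour labelled control 2. The second probe set of Des had a mean of 5.23, under the dim level, and ran between 5.10 and 5.39 in the 6 tumours.

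The differences of the pericyte genes Rgs5, Notch3 and Cspg4 were -0.68, -0.54 and -0.06, and none passed the adjusted threshold in limma. Rgs5, a regulator that shortens signals from G protein-coupled receptors and widely used as a pericyte marker, was at 10.94, 10.62 and 11.06 in the controls and at 10.20, 9.71 and 10.66 in the Bptf KD tumours on its brightest probe set. Bptf KD 3 lay just above the tumour labelled control 2 and below the other controls, and Bptf KD 2 was lowest. The means were 10.87 ± 0.23 and 10.19 ± 0.48 (SD, n = 3 each). The difference of -0.68 (SE 0.25), a level 0.623 times that of the controls, had an unadjusted limma p of 0.0318 and an adjusted p of 0.328. Without the tumour labelled control 2, the lowest control for this gene, it was -0.81 and did not pass either (limma adjusted p = 0.111). Without Bptf KD 2, the lowest tumour, it was -0.44 (limma adjusted p = 0.679).

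Rgs5 had 4 probe sets, all above the dim level, and they did not give 1 answer. On the first of the other 3 the levels were 8.33, 8.12 and 8.25 in the controls and 7.42, 7.08 and 7.77 in the Bptf KD tumours, and on the second 8.23, 7.67 and 8.39 against 7.39, 6.98 and 7.47. On both, every Bptf KD tumour lay below every control, with differences of -0.81 (SE 0.18) and -0.82 (SE 0.22) in a limma fit over all 20380 single-gene probe sets (adjusted p = 0.165 and 0.239). In that fit the groups were apart with Bptf KD lower in 7.95% of all probe sets and in 4 of the 18, which are these 2 and those of Myl9 and Notch3. The fourth Rgs5 probe set, of the x_at class whose probes can bind other transcripts, differed by -0.07 (SE 0.27), with its highest level (8.60) in the tumour labelled control 2 and 7.53 to 8.05 in the rest.

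**Figure D2:**
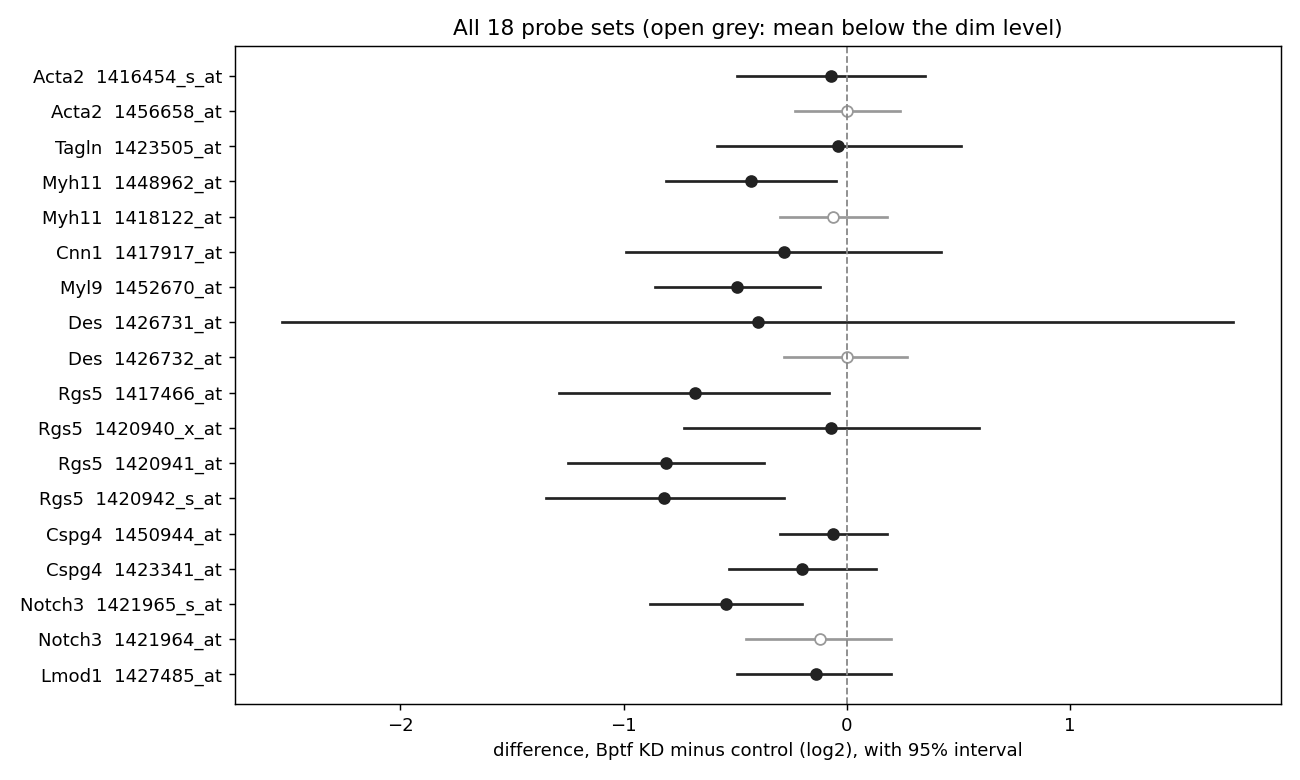
Difference between Bptf KD and control tumours (log2, horizontal axis) with its 95% interval from limma for each of the 18 probe sets, named by gene and probe set. Filled points have a mean above the dim level and open grey points lie below it; 3 of the 4 Rgs5 probe sets lie between -0.82 and -0.68 and the fourth at -0.07.

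Notch3, a receptor that mural cells need to mature around arteries, had the smallest p of the 10 genes. It was at 7.34, 6.86 and 7.13 in the controls and at 6.51, 6.56 and 6.64 in the Bptf KD tumours, which lay below all controls and within 0.13 of each other. The means were 7.11 ± 0.24 and 6.57 ± 0.07 (SD, n = 3 each; exact two-sided permutation p = 0.1). The difference of -0.54 (SE 0.15) is a level 0.688 times that of the controls, with an unadjusted limma p of 0.00927 and an adjusted p of 0.199. Without the tumour labelled control 2 it was -0.67 and passed (limma adjusted p = 0.0336). Over the alternatives the limma adjusted p ran from 0.00859 to 0.504. The lowest came with array weights, a step that stopped before converging and with which 1680 of all 9249 genes passed. The tumour labelled control 2 held the lowest Notch3 level among the controls. The second probe set of Notch3 lay under the dim level, with a difference of -0.12. Cspg4, the surface proteoglycan NG2 of pericytes, was at 7.28, 7.44 and 7.28 in the controls and at 7.21, 7.25 and 7.36 in the Bptf KD tumours, a difference of -0.06 (SE 0.12, 95% interval -0.34 to 0.22, limma adjusted p = 0.871). Its second probe set differed by -0.20 (SE 0.14).

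The other pericyte genes of a list of markers did not follow Rgs5 and Notch3 in 1 direction. Of 13 on the array 6 were above the dim level, of which 2 were lower and 4 higher in Bptf KD tumours, with a median difference of 0.28 (-0.16 over all 13 with no filter, so that its sign rests on the filter), and 0 passed the adjusted threshold in limma (at an unadjusted p under 0.05, 2 higher and 0 lower). Pdgfrb, the receptor through which pericytes are recruited to vessels, was at 9.42, 9.51 and 9.88 in the controls and at 9.41, 8.88 and 9.39 in the Bptf KD tumours, all below the controls by a narrow gap (difference -0.38, SE 0.20, limma adjusted p = 0.491). Higd1b, a mitochondrial protein enriched in pericytes, went the other way, from 6.25, 6.50 and 6.61 to 7.14, 7.17 and 7.03 (difference 0.66, SE 0.14, limma adjusted p = 0.0985). Mcam, an adhesion molecule of mural and endothelial cells, was at 8.76, 8.58 and 8.47 against 9.06, 8.92 and 8.80 (difference 0.32, SE 0.13, limma adjusted p = 0.366). Rgs4, of the same family as Rgs5, differed by -0.26.

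Endothelial markers, the cells that pericytes cover, had a median difference of 0.05 over 14 genes, 6 lower and 8 higher. Their mean level was 7.92, 7.50 and 7.71 in the controls and 7.65, 7.59 and 7.66 in the Bptf KD tumours. Set against that mean in the same tumour and centred on the controls, Rgs5 was at -0.14, -0.04 and 0.19 in the controls and at -0.61, -1.05 and -0.16 in the Bptf KD tumours. Notch3 was at 0.02, -0.04 and 0.02 against -0.54, -0.43 and -0.42. Both thus had every Bptf KD tumour below every control beside this endothelial mean. For Rgs5 this was by a narrow gap, -0.16 in Bptf KD 3 against -0.14 in control 1, and its own levels overlapped. The share of all genes apart on this measure was not computed. Acta2 was at -0.32, -0.01 and 0.32 against -0.22, 0.13 and 0.10. These relative values were computed after the levels were seen and carry no test. Within the endothelial list Tek, the receptor of the angiopoietins that mural cells release, fell from 6.99, 6.79 and 7.06 to 5.65, 5.66 and 5.63 (difference -1.30, SE 0.12, limma adjusted p = 0.00987), to levels under the dim level, so the size is uncertain. Vwf, the clotting factor stored in endothelial cells, differed by -0.98 (limma adjusted p = 0.129) and Cldn5, a claudin of endothelial tight junctions, by 0.76 (limma adjusted p = 0.199), and Emcn, a surface sialomucin, by 0.44.

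**Figure D3:**
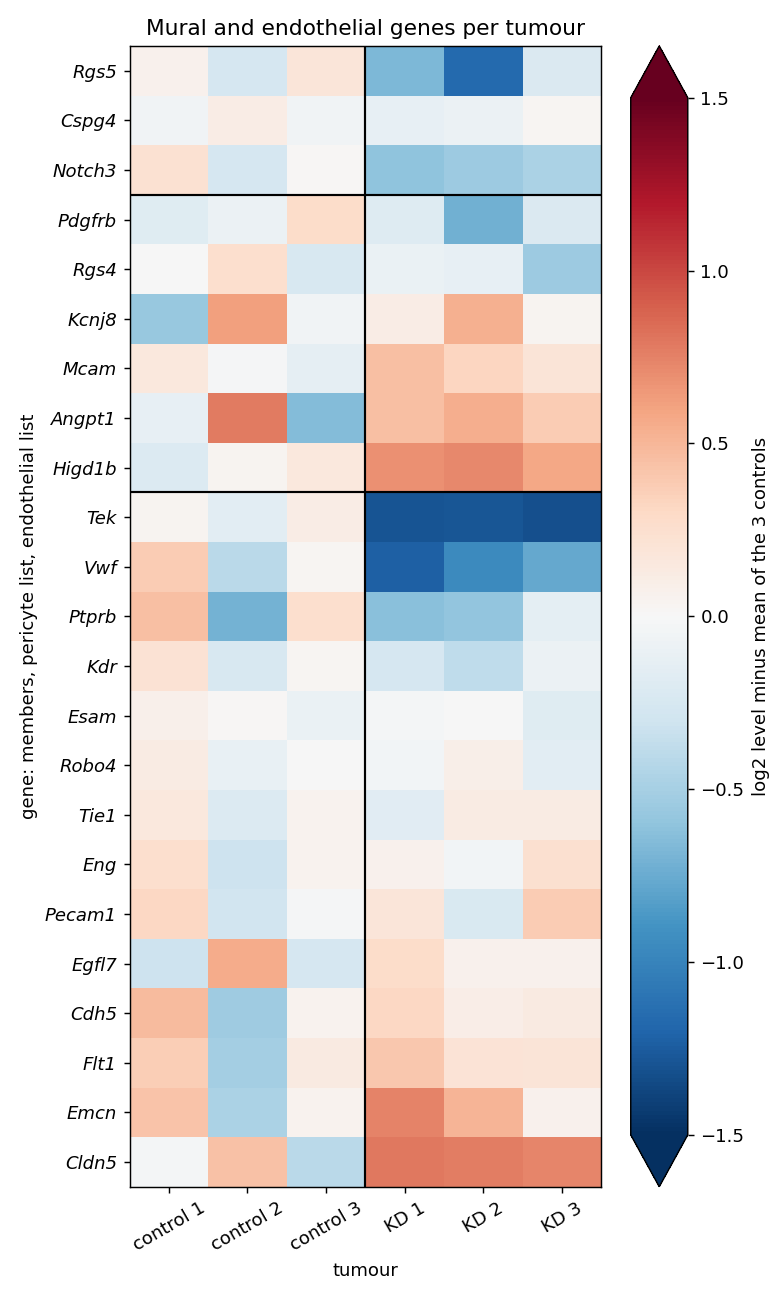
Log2 level minus the mean of the 3 controls (colour, red higher and blue lower, cut at 1.5) in each of the 6 tumours (columns) for Rgs5, Cspg4 and Notch3 (top block), the 6 tested genes of the pericyte list (middle) and 14 endothelial markers (bottom). Rgs5, Notch3, Pdgfrb, Rgs4, Tek and Vwf are among the genes below the control mean in all 3 Bptf KD tumours. Higd1b, Mcam, Kcnj8, Angpt1, Cldn5 and Emcn are among those above it in all 3. Below the mean is not below every control, and for Rgs5 the groups overlap.

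The ligands, receptors and targets of the Notch pathway other than Notch3 gave no call. Of 14 genes on the array 12 were tested, 6 lower and 6 higher with a median of 0.00, and limma called 0 adjusted and 0 at an unadjusted p under 0.05. Jag1, a ligand that activates Notch3 in mural cells, was at 6.75, 6.37 and 6.96 in the controls and at 6.58, 6.19 and 6.45 in the Bptf KD tumours (difference -0.29, SE 0.19). Hes1, a direct target, was at 9.28, 8.66 and 9.20 against 9.20, 9.35 and 9.58 (difference 0.33, SE 0.20), Notch4 differed by 0.33 and the endothelial ligand Dll4 by 0.34, with groups that overlapped in each. Hey2 and Heyl, targets used as readouts in mural cells, were under the dim level.

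The other proteins of the contractile apparatus went both ways. Of 18 on the array 15 were tested, 8 lower and 7 higher, with a median difference of -0.08, and 0 passed the adjusted threshold in limma (at an unadjusted p under 0.05, 2 lower and 0 higher). Mylk, the kinase that phosphorylates the product of Myl9, was at 9.30, 9.25 and 9.12 in the controls and at 9.00, 8.43 and 8.88 in the Bptf KD tumours, all below the controls (difference -0.45, SE 0.17, limma adjusted p = 0.336). Cav1, the coat protein of caveolae, which fat and endothelial cells hold too, was at 11.53, 11.32 and 11.34 against 10.97, 10.46 and 10.42 (difference -0.78, SE 0.18, limma adjusted p = 0.126). Actg2, the smooth muscle actin of the gut and closest relative of Acta2 in the list, was at 7.49, 7.32 and 8.61 against 8.19, 8.58 and 8.71 (difference 0.69, SE 0.35, limma adjusted p = 0.463). Control 3 was the highest control for Actg2, Acta2 and Tagln alike. Csrp1, a LIM protein of smooth muscle, differed by 0.45 (SE 0.23), with its highest level in the tumour labelled control 2.

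The regulators of the contractile genes gave 0 adjusted calls among 10 tested of 12 on the array, 1 lower and 1 higher gene where the unadjusted limma p was under 0.05 and a median of 0.03. Srf itself was at 9.35, 9.54 and 9.19 in the controls and at 9.25, 9.57 and 9.32 in the Bptf KD tumours, a difference of 0.02. Myocd was under the dim level. Fhl2, a LIM protein that binds SRF, was at 10.52, 10.37 and 10.42 against 10.84, 11.13 and 11.07 (difference 0.58, SE 0.13, limma adjusted p = 0.118). Tgfb1i1, a focal adhesion protein induced by TGF-beta, was at 8.25, 7.92 and 8.00 against 7.83, 7.66 and 7.72 (difference -0.32, SE 0.13, limma adjusted p = 0.367). Klf4, which represses contractile genes, differed by -0.39 (SE 0.20) and Elk1, a partner of SRF, by 0.23. Srf was chosen after its values were seen.

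TGF-beta turns fibroblasts into myofibroblasts, and its signalling genes had a median difference of 0.23 over 13 genes, 3 lower and 10 higher, with 0 adjusted calls in limma (at an unadjusted p under 0.05, 2 higher and 0 lower). The ligand Tgfb3 was at 9.24, 8.49 and 8.84 in the controls and at 9.45, 9.39 and 9.77 in the Bptf KD tumours (difference 0.68, SE 0.21, limma adjusted p = 0.248). The receptor Tgfbr1 differed by 0.39 (limma adjusted p = 0.274), the target Ccn2 by 0.47 and the repressor Skil by 0.34. Without the tumour labelled control 2 the median of the list was 0.03.

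Genes of fibroblasts and their matrix, a list not limited to myofibroblasts, were mostly lower. Of 16 fibroblast and matrix genes 15 had a difference below 0, with a median of -0.90, and 5 passed the adjusted threshold, among them the proteoglycan Dcn (-1.70, limma adjusted p = 0.0385) and the collagen chains Col1a1 (-1.81), Col6a3 (-1.22) and Col3a1 (-0.91), each with a limma adjusted p of 0.0435. The list mean was 12.05, 12.07 and 12.26 in the controls and 11.05, 11.20 and 11.28 in the Bptf KD tumours. Set against that mean in the same tumour and centred on the controls, Acta2 was at -0.03, -0.16 and 0.19 in the controls and at 0.79, 0.94 and 0.90 in the Bptf KD tumours. Tagln was at -0.21, -0.18 and 0.39 against 1.03, 0.77 and 0.95. Rgs5 was at 0.14, -0.20 and 0.06 against 0.41, -0.23 and 0.63, with groups that overlapped. The matrix mean was itself lower in every Bptf KD tumour, so a gene of equal level in both groups comes out higher beside it. Cspg4, Lmod1, Myh11, Myl9 and Notch3 also lay higher relative to it in every Bptf KD tumour than in any control, by 0.89, 0.81, 0.52, 0.46 and 0.41, so this order is not particular to Acta2 and Tagln. These values, too, were computed after the levels were seen and carry no test. Adipocyte markers moved with the matrix genes: all 10 were lower, with a median of -2.75 and a list mean of 9.69 to 10.55 in controls but 6.84 to 7.77 with Bptf KD, and Car3 (-3.66), Lpl (-3.27), Fabp4 (-2.85) and Retn (-2.62) passed with limma adjusted p from 0.00364 to 0.00987. The vessels of the host fat pad carry mural cells as well, and the part of the fat pad in the values of Rgs5, Notch3, Myl9 and Myh11 was not tested.

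**Figure D4:**
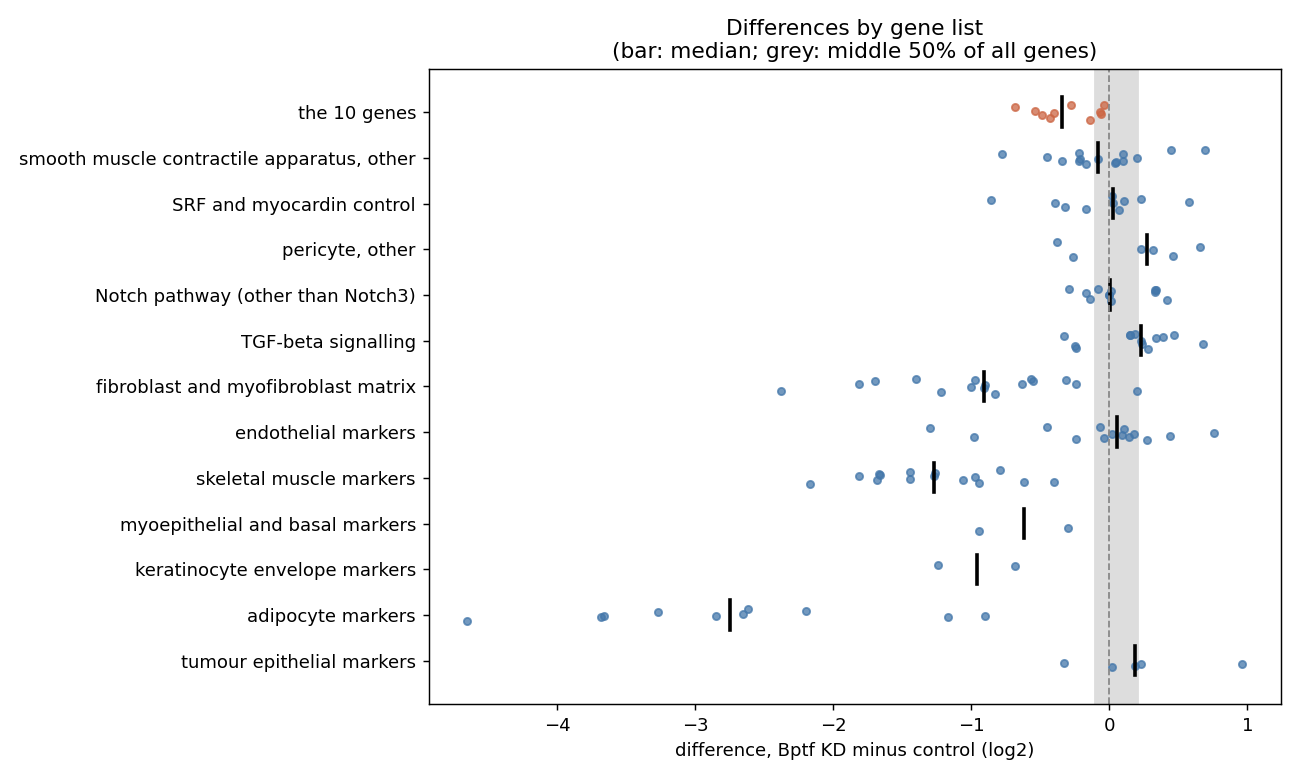
Difference between Bptf KD and control tumours (log2, horizontal axis), 1 point per gene, for the 10 genes (top row) and 12 gene lists, with a black bar at each median and the middle 50% of all 9249 genes (-0.10 to 0.21) in grey. The 10 genes lie between -0.68 and -0.04, with a median of -0.34; the fibroblast and adipocyte lists lie lower, with medians of -0.90 and -2.75.

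The genes whose pattern over the 6 tumours was most like that of each of the 10 were found by the root mean square difference of log2 levels, each gene centred on its own mean, among the 9249 genes. For Des the closest were Ankrd2, Asb11 and Myl4, at 0.23, 0.29 and 0.30, in a gene whose own SD over the tumours was 1.26. For Rgs5 (SD 0.50) they were Cachd1, Glul and Slit2, at 0.15, 0.16 and 0.17, and for Notch3 (SD 0.34) Celf2, Lpin1 and Myh9, each at 0.08. For Myl9 they were Rasl12, Rimklb and Naaa at 0.09 to 0.10, for Myh11 Lrp1, Folr2 and Dennd4b at 0.08 to 0.12, for Acta2 Gnptab, Zfp518b and Opa1 at 0.07 to 0.08, for Tagln Mrpl46, Polh and Nat8f4 at 0.11 to 0.12, and for Cnn1 Slc45a3, Mid1ip1 and Zfp931 at 0.08 to 0.09. Cspg4 and Lmod1 varied too little (SD 0.08 and 0.18) for the measure to set genes apart, with 0.02 to 0.03 for Hid1, Slc41a3, Emilin3, Col9a3, Ank1 and Slc26a6. With 6 tumours and 9249 genes, close patterns occur among unrelated genes, and the values are a description. Among the 10 themselves Cspg4 and Lmod1, which varied little, were closest (0.13). Acta2 and Tagln were close (0.16), as were Myh11 and Notch3 (0.17) and Myh11 and Myl9 (0.21), while Acta2 and Rgs5 were at 0.43. Des was at 1.02 or more from each of the others, but this measure grows with a gene's spread and Des had the largest SD. Its Pearson correlation with the others over the 6 tumours ran from -0.74 (Acta2) to 0.82 (Lmod1).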

How the data were processed

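RNA of 6 tumours (500 ng each) was measured on Affymetrix arrays, 1 per tumour, per the labels' protocols. Necrotic tissue was dissected away where present, per the labels' protocols. The authors deposited log2 expression values, made with RMA (version not stated) per the submitters' processing notes. The log base was taken as 2, since values ran from 2.98 to 15.17; the sources used here do not name it. No genome build is named, so genes carry no coordinates; promoters come from RefSeq GRCm38.p6. By GEO's platform annotation 20380 probe sets had 1 gene, 691 several and 1555 none named, besides 64 controls. Symbols were checked by Entrez identifier (29 unmatched kept their name).

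Each gene was read from its probe set of highest mean, and probe sets with a mean in the lowest 30% (6.09) were left out, which left 9249 genes. Groups were compared with limma 3.58.1 in R 4.3.3 (no covariate, Benjamini-Hochberg over all genes, threshold 0.05), tested on simulated data. Differences are log2 Bptf KD minus control. Every adjusted p is from limma. The labels call the tumours biological triplicates; whether they grew in separate mice is not said. Precision is limited by the number of arrays, and RMA values carry no detection call. The members and lists were chosen with earlier results of these data known. Named genes are the 10, Bptf and up to 4 genes with the smallest p of each list. The 3 genes most alike in pattern to each of the 10 are named too. Srf, Actb, Gapdh and the list genes named as under the dim level were named outside this rule. The 17 alternatives changed the filter, the probe set rule, the scaling, the eBayes settings, array weights, a replicate block and a muscle covariate, or left out 1 tumour.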

Additional observations from a re-analysis of the deposited data

How the results depend on the processing

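Of the 10 genes, Myh11, Myl9, Rgs5, Notch3 and Cspg4 kept a negative difference in every alternative fitted per gene that tested them: -0.58 to -0.34, -0.65 to -0.37, -0.92 to -0.44, -0.67 to -0.43 and -0.20 to -0.01. With each probe set fitted on its own, the weakest were -0.06 for Myh11, -0.07 for Rgs5 and -0.12 for Notch3. The others changed sign: Acta2 without control 3 (0.09) or without Bptf KD 1 (0.03), Tagln without control 3 (0.22) or without Bptf KD 2 (0.03), Cnn1 without the tumour labelled control 2 (0.02), Lmod1 with array weights (0.06), and Des with array weights (0.83), with the muscle covariate (0.38) or without the tumour labelled control 2 (0.54); the cause was not tested. Leaving out 1 tumour at a time gave -0.18 to 0.09 for Acta2, -0.18 to 0.22 for Tagln, -0.52 to 0.02 for Cnn1 and -1.03 to 0.54 for Des. With array weights 3 of the 10 passed (Notch3, Myl9 and Rgs5), in a fit where 1680 of all 9249 genes did. Limma reported that this step stopped before converging. In the other alternatives 0 of the 10 passed, except Notch3 without the tumour labelled control 2, where 412 of all 9249 genes did. Over all genes the count was 42 with the stricter filter (50%), 45 with each of 20380 probe sets on its own and 49 with the muscle covariate. Leaving out each tumour in turn gave 0 to 412 genes and 0 to 1 of the 10. Without Bptf KD 3, 0 genes passed in limma and 742 had an unadjusted p under 0.05.

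Deviations from the group means of equally numbered tumours correlated across genes at 0.01, 0.28 and 0.37. For unequally numbered tumours the values ran from -0.44 to 0.35. Deviations within a group sum to 0, so these values are not independent. Whether equally numbered tumours belong together was not tested. With the replicate number as a block, 107 genes and 0 of the 10 passed. Median centring and a second quantile normalisation moved the median of all genes by at most 0.02. List medians near 0 took both signs over the alternatives. They ran from -0.15 to 0.02 for the other contractile genes and from -0.15 to 0.08 for the regulators of the contractile genes. The endothelial median ran from -0.08 to 0.18 and that of the Notch pathway from -0.07 to 0.14. The pericyte median ran from -0.16 to 0.43 and that of the tumour cell markers from -0.01 to 0.42.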
